A study of Mus musculus with 21 samples.

Results

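Lipoproteins carry triglyceride and cholesterol through blood, and the liver makes most of the proteins that build them. The account below covers 10 mouse genes chosen by name for that task (Apoa1, Apoa2, Apoa4, Apoa5, Apob, Apoc1, Apoc3, Apoe, Mttp and Lcat), of 21887 protein-coding genes in the RefSeq annotation. Each gene was taken with its annotated body and 25 kb on each side, here called its window. The 10 windows fall into 6 loci, since Apoa1, Apoc3, Apoa4 and Apoa5 are neighbours on chromosome 9 and Apoc1 and Apoe are neighbours on chromosome 7, and together they span 456.566 kb of mm10.

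In the hepatocyte, ApoB is the structural protein of very-low-density lipoprotein, and the microsomal triglyceride transfer protein encoded by Mttp loads it with lipid as it enters the endoplasmic reticulum. ApoA-I and ApoA-II are the main proteins of high-density lipoprotein, on which lecithin-cholesterol acyltransferase, the product of Lcat, esterifies cholesterol. ApoC-I, ApoC-III, ApoA-V and ApoE ride on these particles and set how fast lipases and receptors remove their lipid.

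Chromatin immunoprecipitation with sequencing (ChIP-seq) was carried out on perfused primary hepatocytes of mice at postnatal day 90, on a mixed C57/B6 and 129 background. KO mice carried floxed Arid1a alleles and Alb-cre, a Cre recombinase under the albumin promoter, which is active in hepatocytes. WT mice carried the same floxed alleles (Arid1a Fl/Fl) without Cre. ARID1A belongs to SWI/SNF, a complex that moves nucleosomes along DNA. The deposited peak lists come from 2 KO and 2 WT libraries for C/EBPα, a transcription factor of differentiated hepatocytes, from 3 KO and 3 WT libraries for H3K4me2, a histone mark of promoters and enhancers, and from 1 library of V5-Arid1a transgenic mice precipitated with an antibody to the V5 tag. Of 21 samples, these 11 were used, and the 10 input samples were not analysed here.

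The lists hold positions of called peaks, so a missing peak means that none was called or kept there, and the read depth behind it is unknown. For C/EBPα, 16178 and 17781 peaks were listed in KO and 17733 and 23646 in WT. Among the H3K4me2 lists, KO list 3 stood apart with 175797 peaks, against 24908 and 54544 in the other KO lists and 34849 to 61246 in WT. All 6 hepatocyte marker genes had H3K4me2 within 1 kb of an annotated gene end in all 6 lists, against 0 of 5 sinusoidal endothelial, 0 of 6 Kupffer cell and leukocyte, 1 of 5 stellate cell (Reln), 1 of 4 cholangiocyte (Epcam) and 2 of 4 intestinal markers (Cdx2 and Fabp2). Endothelial ends were marked at 0, 5 and 2 genes in the KO lists and at 2, 5 and 2 genes in the WT lists, so replicate 2 of each genotype carried the most. The loss of Arid1a cannot be checked in peak positions, and the genotypes are as labelled.

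C/EBPα occupied these loci in both genotypes, and the regions called in both libraries of 1 genotype and in neither of the other were all KO regions. The windows held 37 and 37 C/EBPα peaks in the KO lists and 27 and 32 in the WT lists. Peaks that shared at least 1 bp were merged into regions, giving 41 regions in the windows of 27244 in the genome. A region was called kept when all 4 lists had a peak in it, gained when both KO lists and no WT list did, and lost when both WT lists and no KO list did. Kept regions came to 26, which is 63.4% of the 41, where 42.8% of all regions were kept. Gained regions came to 6, which is 17.6% of the 34 that both KO lists called, where 5.27% of all such regions were gained. Lost regions came to 0 of the 27 that both WT lists called, which allows a share of up to 11.1%, where 19.3% of all such regions were lost. Leaving out KO list 2 gave 1 lost of 27, beyond Apoe, where 25.8% of all such regions were lost. Leaving out WT list 1 gave 1 of 31, beyond Apob, against 30.1% of all. The remaining 9 regions had peaks in other combinations of lists, and 5 of them rested on a single list. With an equal number of the widest peaks taken from each list, 7 of 32 such regions were gained, against 11.5% of all, and 4 of the 6 gained above were among them (both at Apoa4, the Apoa5 start and 1 at Apoa2). With peaks narrower than the median of the 4 lists removed, 7 of 21 were gained, against 12.1% of all, and they shared the first Apoa4 region and the Apoa5 start with the 6. The others were regions called kept above, whose WT peaks fell below that width while both KO peaks did not.

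**Figure D1:**
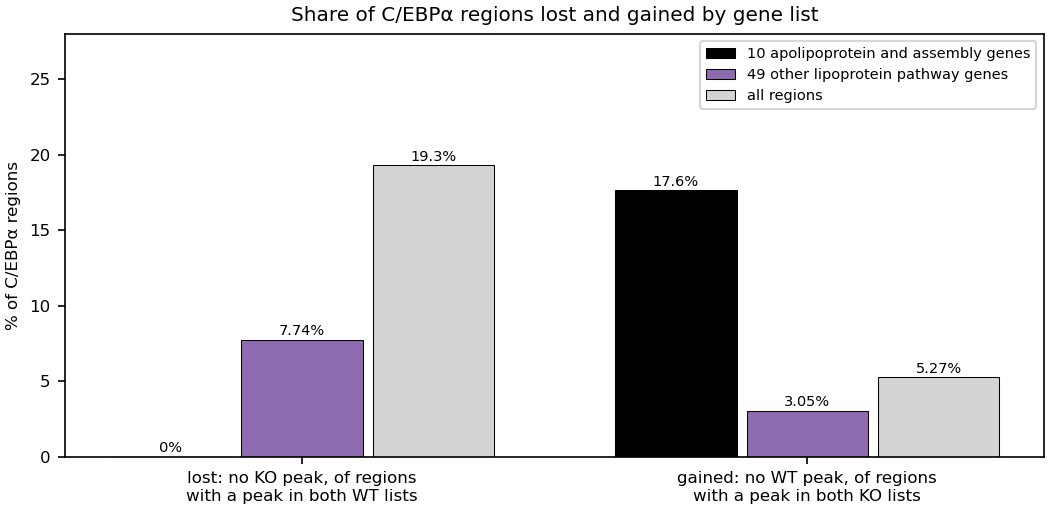
Percentage of C/EBPα regions lost (left) and gained (right) in KO, for the windows of the 10 apolipoprotein and assembly genes (black), 49 other lipoprotein pathway genes (purple) and all merged regions (grey). The black bar is at 0% for lost regions and at 17.6% for gained ones, where all regions gave 19.3% and 5.27%.

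All 6 gained regions touched the annotated body of a member gene, and 4 of them lay within 1 kb of an annotated end. Of the 26 kept regions, 8 touched a member's body and 6 lay within 1 kb of an end. These places were not counted over all gained regions, so they are not shown to be particular to these genes. They belong to 3 loci: 3 in the chromosome 9 cluster, 2 at Apoa2 and 1 at Mttp. At least 1 gained region lay in the windows of 6 of the 10 genes, several of which share regions, against 10.1% of the 12824 protein-coding genes with any C/EBPα region in the window. None of the 10 windows held a lost region, against 21% of those genes. The Apoa4 window held 3 gained regions and was 1 of 8 such windows among the 12824 (0.0624%). One of its 3 is the region at the Apoa5 start, which lies across the edge of the window. The 8 windows are not independent, since several belong to neighbouring genes, such as Il4i1 and Tbc1d17, and overlap. The nearest WT peak to a gained region was between 710 and 10159 bp away. An H3K4me2 peak touched 5 of the 6 gained regions in all 6 lists, against 50.1% of all gained regions, and touched 18 of the 26 kept ones, against 37.4% of all kept regions.

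**Figure D2:**
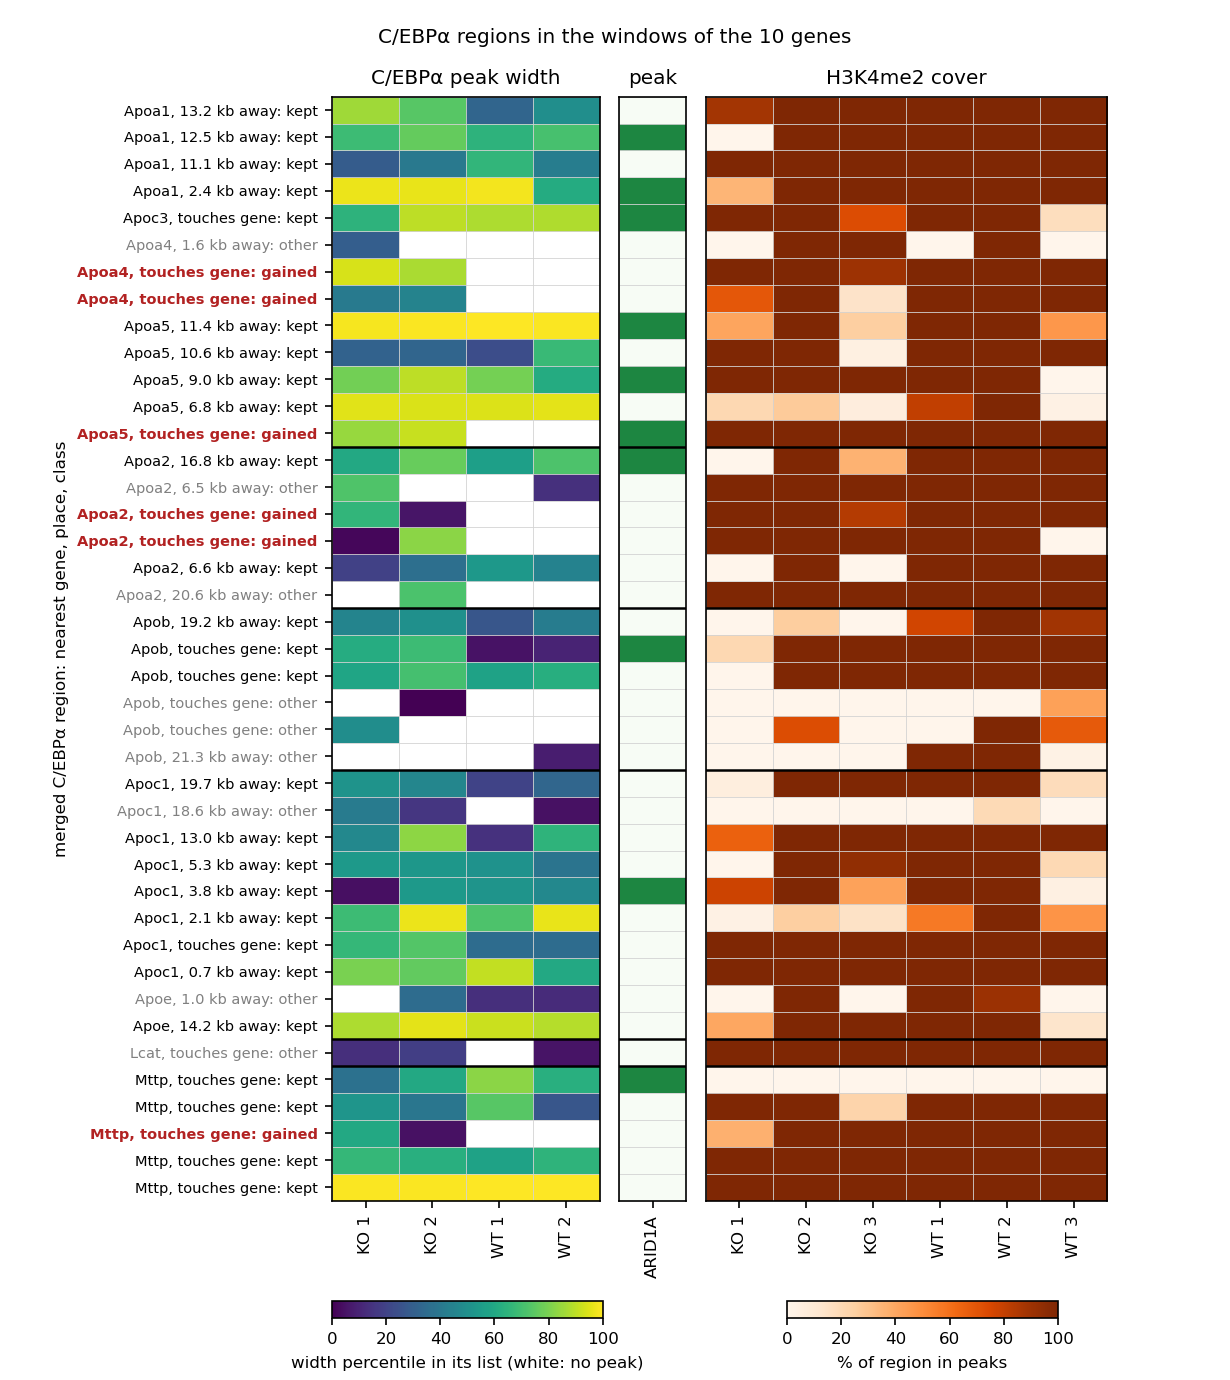
The 41 C/EBPα regions (rows, grouped by locus) with the width percentile of the C/EBPα peak in each list, the presence of an ARID1A peak (green) and the percentage of the region inside H3K4me2 peaks. Gained regions (bold red names) are white in both WT columns, and 5 of the 6 have some H3K4me2 cover in all 6 lists.

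Apob encodes the protein backbone of very-low-density lipoprotein (chr12:7977629-8016839, plus strand), and its start was the kept region of the 26 where the width percentile of C/EBPα peaks differed most between genotypes. The region chr12:7977367-7977904 spans the transcript start at 7977677. C/EBPα peaks there were 465 and 473 bp wide in KO and 282 and 284 bp wide in WT. Since these lists give no peak height, each width was also ranked within its own list. The rank runs from narrowest to widest, with ties averaged, and is given as a percentage of that list's number of peaks. The widths ranked at percentiles 61.8 and 68.4 in KO and 5.0 and 9.9 in WT, so both KO values lay above both WT values. The difference of 57.7 percentile points had an exact permutation p of 0.333 (two-sided), the smallest that 2 against 2 libraries allow, and the same holds for each such difference below. An ARID1A peak of 312 bp covered the start (chr12:7977435-7977746).

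The promoter sequence from 250 bases before to 50 after the Apob start (RefSeq, GRCm38.p6, chr12:7977427-7977726, plus strand) is shown because C/EBPα peaks cover 287 and 300 of its bases in KO and 271 and 278 in WT, the ARID1A peak covers 292, and letters of known hepatocyte motifs lie inside it. The C/EBP letters TTGCNNAA and the HNF4 letters CAAAGNNCA were searched on both strands, and matches are in capitals.
Apob: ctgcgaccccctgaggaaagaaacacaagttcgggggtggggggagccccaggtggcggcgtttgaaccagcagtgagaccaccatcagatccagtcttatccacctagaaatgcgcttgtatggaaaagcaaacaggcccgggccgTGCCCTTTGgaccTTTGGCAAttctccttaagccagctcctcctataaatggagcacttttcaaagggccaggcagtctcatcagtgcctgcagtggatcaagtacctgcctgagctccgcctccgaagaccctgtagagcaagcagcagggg
The first capital run is an HNF4 match at positions -103 to -95 from the start, and the second is a C/EBP match at positions -90 to -83, both read on the opposite strand and not overlapping. Among 32851 promoters of the same length, 10.8% held the C/EBP letters and 6.36% the HNF4 letters. Of promoters that share a base with a kept C/EBPα region, 26.3% held the C/EBP letters, against 12.1% of those on a gained region.

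A further kept region lay just inside Apob (chr12:7978361-7978848), with widths of 452 and 483 bp in KO and 413 and 424 bp in WT. Its width percentiles, 58.6 and 70.3 in KO and 57.8 and 62.8 in WT, overlapped. The region farthest upstream (chr12:7957976-7958404) ranked at percentiles 45.1 and 50.4 in KO and 26.7 and 42.1 in WT. The Apob body held a 220-bp peak in KO list 2 alone and a 418-bp peak in KO list 1 alone, and a 278-bp peak downstream of the gene was in WT list 2 alone. C/EBPα peaks covered 1740 and 1573 bp of the Apob window in KO and 1033 and 1346 bp in WT.

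Mttp (chr3:138089855-138143418, minus strand) had the widest C/EBPα peak at a start among the 10 genes, with no gap between genotypes in base pairs. The kept region chr3:138142813-138144120 spans the start at 138143418 and that of Trmt10a, a divergent neighbour. Its peaks were 1253 and 1196 bp wide in KO and 1158 and 1257 bp wide in WT, at percentiles 99.5 and 99.4 in KO and 99.8 and 99.7 in WT. No ARID1A peak lay there. Its promoter (RefSeq, GRCm38.p6, chr3:138143369-138143668, minus strand) is shown for contrast with Apob, since all 4 C/EBPα lists cover all 300 bases and neither motif is in it.
Mttp: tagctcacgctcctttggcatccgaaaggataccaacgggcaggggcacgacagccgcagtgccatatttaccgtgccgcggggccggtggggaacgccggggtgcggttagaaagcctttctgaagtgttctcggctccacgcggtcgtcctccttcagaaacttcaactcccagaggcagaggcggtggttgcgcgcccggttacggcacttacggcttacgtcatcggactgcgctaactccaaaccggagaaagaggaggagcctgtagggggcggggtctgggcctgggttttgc
Absence of these letters says nothing more than that the 300 bases do not hold them.

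The gained region of Mttp lay inside the gene (chr3:138130322-138130780), with peaks of 459 and 265 bp in KO and none in WT. The KO peaks ranked at percentiles 60.4 and 4.59, so the call rests on a narrow peak in KO list 2. The nearest WT peaks were 710 and 813 bp away, in the kept region chr3:138129141-138129612. That neighbour ranked at percentiles 52.1 and 39.3 in KO and 73.8 and 26.9 in WT, which overlap. A kept region deeper in the body (chr3:138106852-138107378) carried the only ARID1A peak of the Mttp window and no H3K4me2 peak in any list. Its C/EBPα width percentiles were 37.5 and 60.5 in KO and 82.8 and 63.1 in WT, so here both KO values lay below both WT values. C/EBPα peaks covered 3007 and 2703 bp of the Mttp window in KO and 2570 and 2438 bp in WT.

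**Figure D3:**
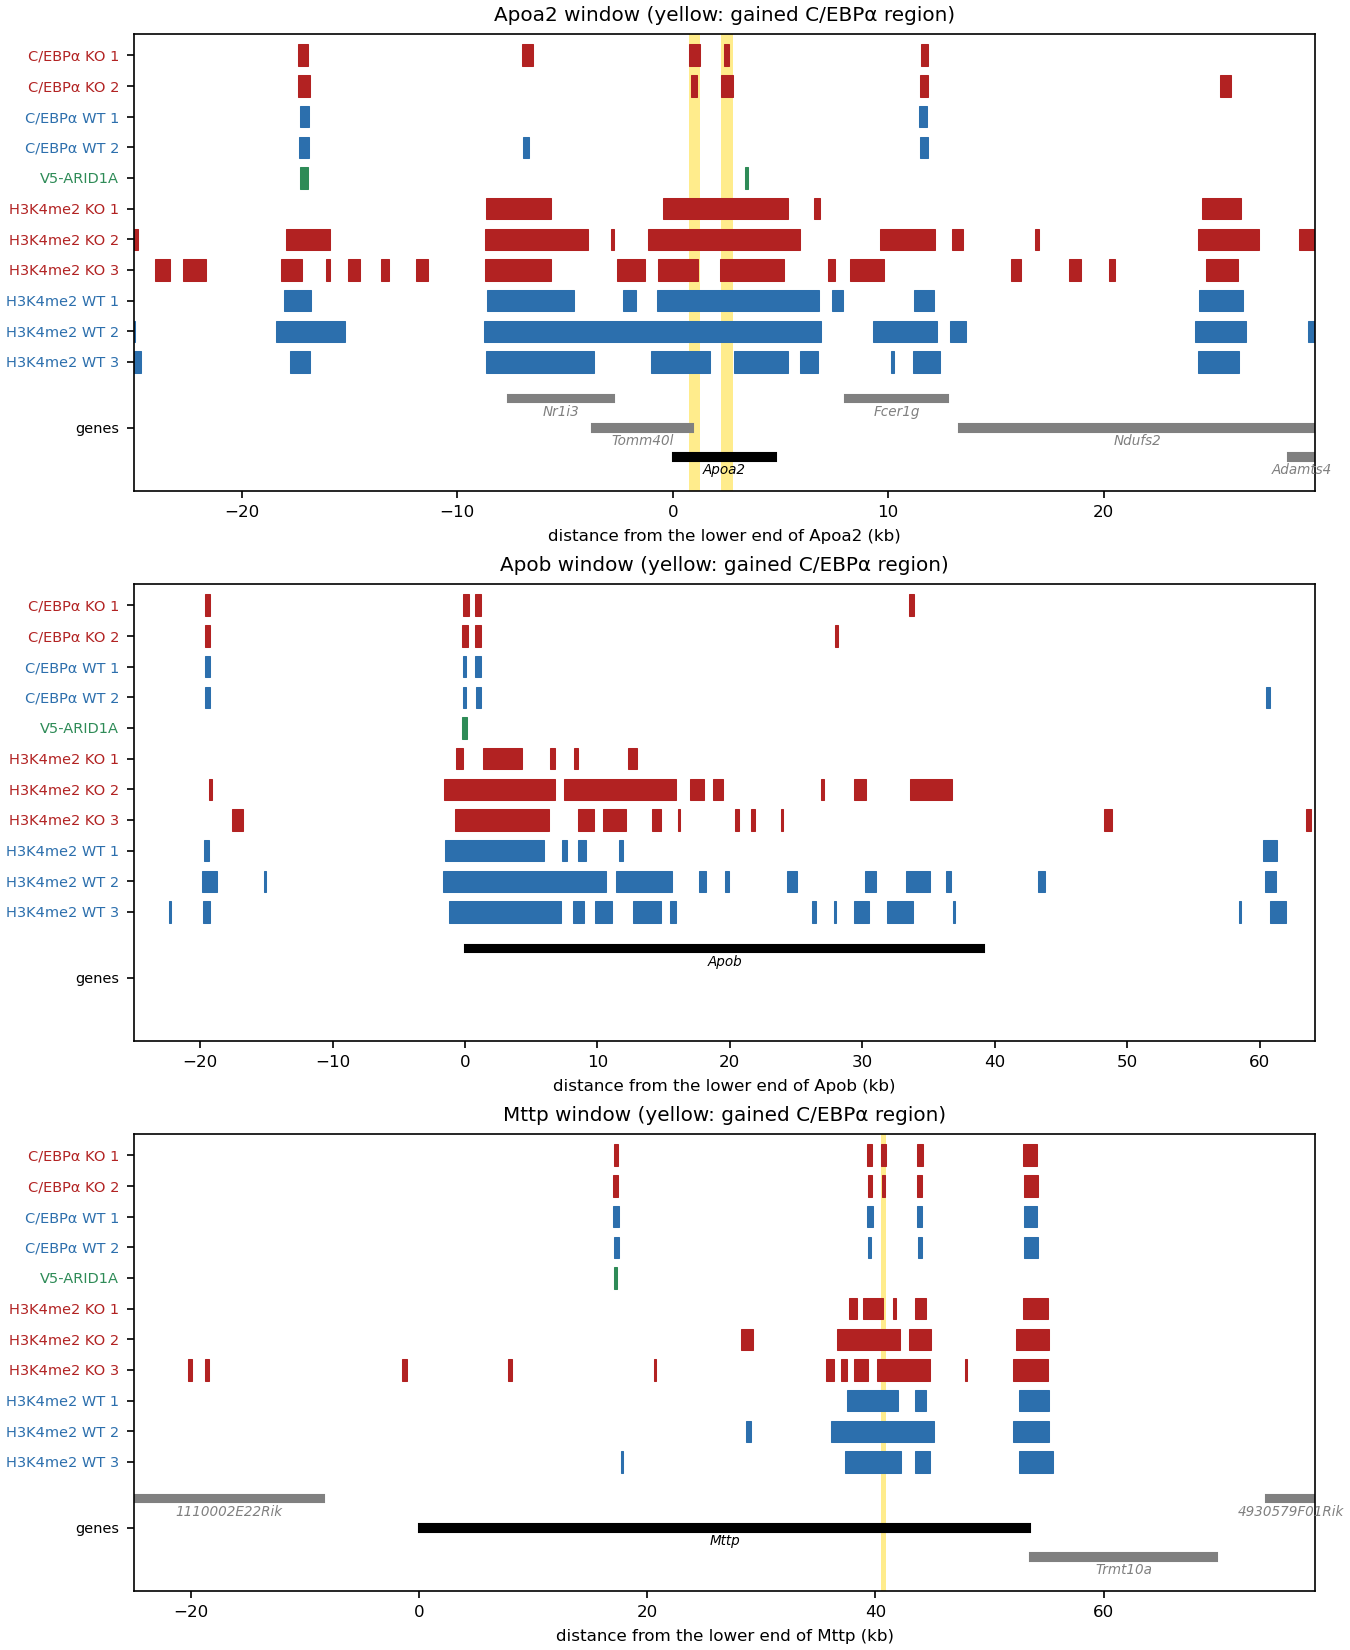
Called peaks in the windows of Apoa2, Apob and Mttp for each list (KO red, WT blue, V5-ARID1A green), in kb from the lower end of each gene, with gene bodies below. Yellow bands mark the gained C/EBPα regions, 2 at Apoa2 and 1 at Mttp, where no blue C/EBPα bar is drawn.

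In the chromosome 9 cluster, 9 of 13 C/EBPα regions were kept, 3 were gained and 0 were lost. The kept regions lay upstream of Apoa1, at Apoc3 and between Apoa4 and Apoa5, and the gained ones lay at Apoa4 and at the start of Apoa5.

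Apoa1, which encodes the main protein of high-density lipoprotein (chr9:46228630-46230469), had no C/EBPα or ARID1A peak within 1 kb of either end. The nearest region, chr9:46225277-46226247, was kept and carried an ARID1A peak. Its C/EBPα peaks were 938 and 901 bp wide in KO and 882 and 419 bp wide in WT. WT list 2 alone was narrow, and it had 2 separate peaks in that region. A further 3 kept regions lay inside the neighbouring Sik3 gene, of which chr9:46214744-46215382 had widths of 639 and 506 bp in KO and 350 and 379 bp in WT. Both KO percentiles there, 85.9 and 74.2, lay above both WT ones, 32.5 and 49.3. The region chr9:46217055-46217493 ran the other way, with percentiles of 28.9 and 40.3 in KO and 66.0 and 42.5 in WT.

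Apoc3, whose product inhibits lipoprotein lipase and hepatic uptake of triglyceride-rich particles (chr9:46233050-46235636), had a kept region over its upper end (chr9:46235204-46235874) with an ARID1A peak. C/EBPα widths were 478 and 671 bp in KO and 574 and 593 bp in WT, and the genotypes overlapped.

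Apoa4 (chr9:46240844-46243458, plus strand) encodes an apolipoprotein of chylomicrons and high-density lipoprotein. Its first gained region, chr9:46240876-46241676, begins 32 bp past the start and held peaks of 801 and 632 bp in KO, at percentiles 93.8 and 87.3, and none in WT. Of the 6 gained regions, it had the widest KO peak. The second, chr9:46241749-46242143, held peaks of 392 and 379 bp in KO and none in WT. The nearest WT peak to these regions was at least 5036 bp away. No ARID1A peak touched either, and H3K4me2 touched both in all 6 lists. The Apoa4 promoter (RefSeq, GRCm38.p6, chr9:46240594-46240893, plus strand) is shown because the gained region starts at its edge, where the KO list 1 peak covers its last 18 bases.
Apoa4: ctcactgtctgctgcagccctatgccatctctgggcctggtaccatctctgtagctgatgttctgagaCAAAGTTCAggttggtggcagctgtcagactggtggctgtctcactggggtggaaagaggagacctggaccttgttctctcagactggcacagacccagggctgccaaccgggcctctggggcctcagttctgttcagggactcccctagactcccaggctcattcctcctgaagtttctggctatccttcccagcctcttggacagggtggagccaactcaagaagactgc
Its capitals mark 1 HNF4 match, at positions -182 to -174 from the start, and no C/EBP match was found.

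Apoa5 encodes an apolipoprotein that lowers plasma triglyceride (chr9:46268608-46271921, plus strand). It had no WT peak at its start and a C/EBPα region there in both KO lists. The region chr9:46268248-46268980 held peaks of 621 and 706 bp in KO, at percentiles 84.4 and 91.5, and none in WT. An ARID1A peak of 407 bp (chr9:46268309-46268715) lay within it, mapped in V5-Arid1a mice. H3K4me2 peaks covered the whole region in all 6 lists. The promoter (RefSeq, GRCm38.p6, chr9:46268358-46268657, plus strand) is shown because both KO lists and the ARID1A list cover all 300 bases and the WT lists cover 0.
Apoa5: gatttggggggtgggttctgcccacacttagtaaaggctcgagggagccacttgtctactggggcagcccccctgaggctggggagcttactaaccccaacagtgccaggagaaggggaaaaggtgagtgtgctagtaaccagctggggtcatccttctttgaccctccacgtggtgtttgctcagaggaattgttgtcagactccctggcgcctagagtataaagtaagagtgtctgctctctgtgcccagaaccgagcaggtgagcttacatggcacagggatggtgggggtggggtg
Neither motif was found in it. The 4 kept regions between Apoa4 and Apoa5 included chr9:46255988-46257248, where peaks were 1080 and 1216 bp wide in KO and 1142 and 1070 bp wide in WT and carried 2 ARID1A peaks. They ranked at percentiles 98.7 and 99.4 in KO and 99.7 and 99.3 in WT.

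**Figure D4:**
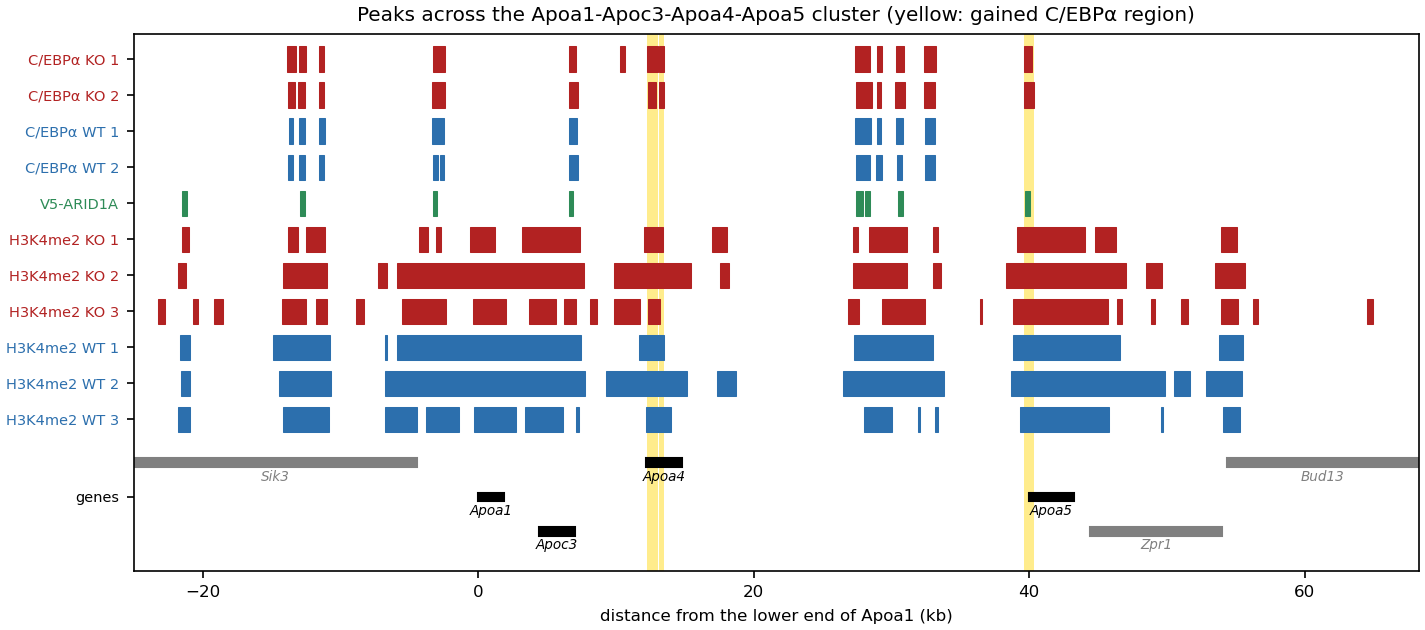
Called peaks across the Apoa1-Apoc3-Apoa4-Apoa5 cluster for each list (KO red, WT blue, V5-ARID1A green), in kb from the lower end of Apoa1. The 3 gained C/EBPα regions (yellow) hold bars in both KO rows and none in the WT rows, and an ARID1A peak lies in the one at Apoa5.

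Apoa2, which encodes the second protein of high-density lipoprotein (chr1:171221564-171226379, plus strand), held 2 gained regions and no other C/EBPα region in its body. The region chr1:171222342-171222824, which also touches the neighbouring Tomm40l, held peaks of 483 and 270 bp in KO and none in WT. The region chr1:171223806-171224381 held peaks of 261 and 576 bp in KO and none in WT, and ended 673 bp before the transcript start at 171225054. The first ranked at percentiles 65.9 and 5.7 in the KO lists and the second at 1.7 and 82.7, so each call rests on a narrow peak in 1 list. H3K4me2 touched the first in all 6 lists and the second in every list except WT list 3. A 168-bp ARID1A peak (chr1:171224905-171225072) lay over the start at 171225054, where no C/EBPα list had a peak. RefSeq gives Apoa2 another start at 171221564, and both promoters (GRCm38.p6, chr1:171221314-171221613 and chr1:171224804-171225103, plus strand) are shown because the gained regions lie between the starts.
Apoa2 first start: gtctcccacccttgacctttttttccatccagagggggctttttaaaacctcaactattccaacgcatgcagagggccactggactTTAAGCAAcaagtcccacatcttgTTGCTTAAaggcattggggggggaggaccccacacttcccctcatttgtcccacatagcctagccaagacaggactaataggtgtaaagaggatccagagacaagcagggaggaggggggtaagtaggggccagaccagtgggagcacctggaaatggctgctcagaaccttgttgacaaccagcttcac
Apoa2 second start: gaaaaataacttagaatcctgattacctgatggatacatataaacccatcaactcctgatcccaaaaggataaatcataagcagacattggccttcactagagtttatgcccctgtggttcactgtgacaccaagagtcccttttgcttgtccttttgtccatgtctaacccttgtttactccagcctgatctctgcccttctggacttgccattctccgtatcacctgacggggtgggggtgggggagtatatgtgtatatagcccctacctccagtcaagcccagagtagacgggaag
The capitals mark 2 C/EBP matches before the first start, which no C/EBPα peak covered in any list, and neither motif was found before the second. The kept region with the highest mean width percentile of the window lay upstream (chr1:171204190-171204718), carried an ARID1A peak and had C/EBPα widths of 459 and 525 bp in KO and 409 and 466 bp in WT, which overlap. C/EBPα peaks covered 2050 and 2215 bp of the Apoa2 window in KO and 809 and 1126 bp in WT, a gap wider than the spread within either genotype.

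Apoc1 and Apoe form the chromosome 7 locus, which had 8 kept regions and no gained or lost one. ApoC-I slows the clearance of lipoproteins, and ApoE is a ligand of the low-density lipoprotein receptor. The region in Apoc1, chr7:19691925-19692453, had peak widths of 487 and 500 bp in KO and 356 and 343 bp in WT. Both KO percentiles, 66.7 and 73.2, lay above both WT ones, 35.2 and 35.3. The next region toward Apoe, chr7:19693329-19693960, had widths of 575 and 519 bp in KO and 616 and 415 bp in WT, which overlap. Apoe itself (chr7:19696244-19701310) had no C/EBPα peak within 1 kb of its ends in any list, and had an ARID1A peak at its upper end (chr7:19700934-19701228). The kept region with the highest mean width percentile of the locus, chr7:19715469-19716326, had widths of 667 and 852 bp in KO and 636 and 607 bp in WT, at overlapping percentiles of 87.7 and 96.0 in KO and 91.9 and 89.0 in WT. The longest merged region, chr7:19686450-19687374, had widths of 496 and 923 bp in KO and 465 and 803 bp in WT, with list 2 of each genotype the wider. A small region 1047 bp beyond the upper end of Apoe (chr7:19702357-19702730) had a peak in KO list 2 and both WT lists, so it was not called lost.

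Lcat (chr8:105939551-105943402), whose product esterifies cholesterol on high-density lipoprotein, had 1 C/EBPα region in its whole window. It had peaks of 312 and 307 bp in KO, and of 269 bp in WT list 2, while WT list 1 had none. No ARID1A peak lay in the window.

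Across the kept regions, peak width gave no single direction. Both KO percentiles lay above both WT ones in 6 of 26 kept regions, against 14.7% of all kept regions, and below in 4, against 27.8%. The remaining 16 overlapped. The median difference, KO minus WT, was 2.88 percentile points in the members' regions and -1.87 over all kept regions. Within the chromosome 9 cluster, 1 kept region had both KO values above both WT ones and another had both below, as given above, and within Mttp 2 of the 4 kept regions had both below and 2 overlapped.

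The length of C/EBPα peaks per window combines presence and width. Both KO lists lay above both WT lists in 8 of 10 windows, against 13.1% of all gene windows, and the lists overlapped at Apoc1 and Apoe. The 13.1% is of 21887 windows, of which 12824 held any C/EBPα region, and a window without one cannot be called. The 8 include the 4 windows of the chromosome 9 cluster, which overlap and share peaks. The Apoa4 window averaged 6520 ± 187 bp in KO and 4698 ± 85.6 bp in WT (SD, n = 2 each). The Apoa1 window averaged 4217 ± 344 bp in KO and 2621 ± 82.0 bp in WT, and shares some of the same peaks. The Apoe window held 3348 and 4537 bp in KO and 3479 and 3613 bp in WT, with KO list 1 the lowest of the 4. No exact permutation p was under 0.05 in any of the 21887 windows, before or after Benjamini-Hochberg adjustment (adjusted p = 1), since 0.333 is the smallest possible. The labels do not say whether the libraries come from separate animals, so these p-values measure only the spread between libraries.

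**Figure D5:**
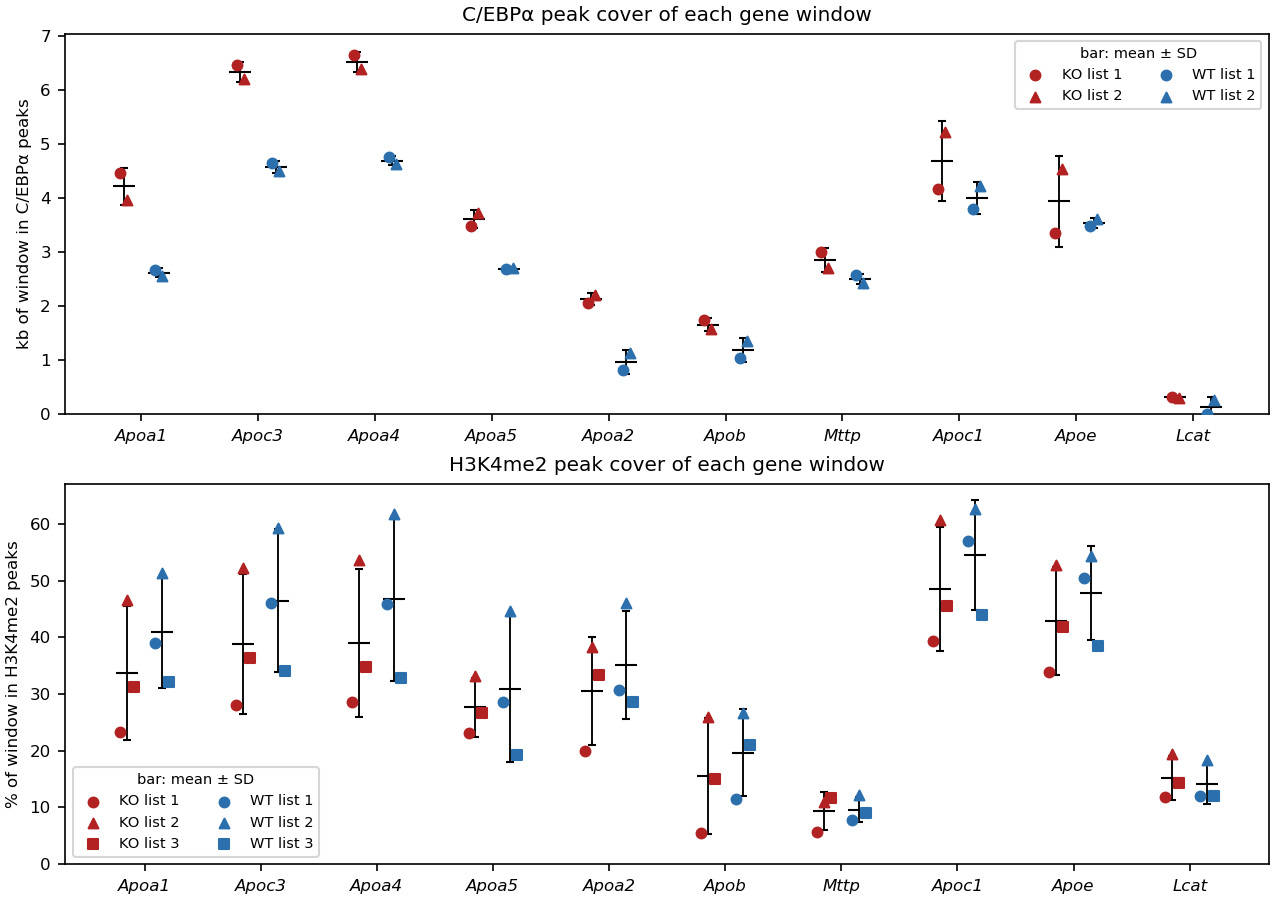
Length of each gene window inside C/EBPα peaks (top, kb) and percentage inside H3K4me2 peaks (bottom) in each list, with KO (red) left of WT (blue) and black bars at the mean ± SD. C/EBPα points separate by genotype in 8 of 10 genes, and H3K4me2 points overlap in all 10.

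ARID1A peaks lay in 9 of 10 member windows, against 20.2% of all gene windows. They numbered 15, with 8 in the chromosome 9 cluster, 2 at Apoa2, 3 at Apoc1-Apoe, 1 at Apob and 1 at Mttp. Apoc3, Apoa5, Apob and Apoe had one within 1 kb of a gene end, that is 4 of 10 genes against 2.23% of all genes. Of the 15 peaks, 11 shared bases with a C/EBPα region, against 82.9% of all ARID1A peaks. ARID1A was found at 9 of 26 kept regions, against 30.9% of all kept regions, and at 1 of 6 gained ones, the Apoa5 start, against 8.01% of all gained regions. These peaks come from 1 library, so they have no replicate.

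Within 1 kb of a gene end, C/EBPα was called in all 4 lists for Apoc3, Apob, Mttp and Apoc1, against 9.73% of all genes. It was gained for Apoa4, Apoa5 and Apoa2. Besides these 3 and the 4 above, only Lcat had a gene-end peak in both KO lists. Of all genes with a gene-end peak in both KO lists, 10.3% were gained. It was lost for 0 of the 4 members with a gene-end peak in both WT lists, against 5.85% of all such genes.

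An H3K4me2 peak lay within 1 kb of at least 1 annotated end of all 10 genes in all 6 lists, against 51% of all genes. The other end was not always marked, and no list had a peak over the upper end of Apob or the lower end of Mttp. The mark was cut into 1-kb bins, each counted for a list where peaks filled 500 bp or more of it. Marked bins in the windows numbered 68, 135 and 98 in KO and 109, 150 and 100 in WT. KO had fewer than WT in each of the 3 same-numbered pairs, by amounts that differed widely. KO lists 1 and 2 also held fewer peaks in the whole genome than WT lists 1 and 2 (24908 against 34849 and 54544 against 61246). KO list 3 held more than WT list 3 (175797 against 49802). Bins per list were not compared over the genome, so the lower KO counts are not shown to be particular to these windows. Bins marked in all 6 lists numbered 53. Lost bins, with all 3 WT lists and no KO list, numbered 2 of the 86 marked in all WT lists, against 2.01% of all such bins, and numbered 10 without KO list 2 and 4 without WT list 1. The 2 bins lay just beyond Apoa2 (chr1:171227001-171228000) and farther beyond Apob (chr12:8038001-8039000), where WT list 2 also had a C/EBPα peak. Gained bins numbered 0 of 56, which allows a share of up to 5.36%, against 0.175% of all such bins, and 1 without KO list 1.

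H3K4me2 covered 23.2, 42.5 and 32.3% of the median member window in KO and 34.9, 48.7 and 30.4% in WT. Over all gene windows the medians were 1.90, 5.77 and 5.54% in KO and 3.11, 5.99 and 3.26% in WT, so the mark is dense around these genes in both genotypes. The KO mean lay below the WT mean in 9 of 10 windows. The share of all gene windows with a lower KO mean was not counted, so this number has no reference. The lists overlapped in all 10 windows. Over all gene windows, 0.0457% had every KO list above every WT list and 0.649% had every KO list below. Exact permutation p lay between 0.4 and 0.9 (adjusted p = 1), and 0.1 is the smallest that 3 against 3 libraries allow. With libraries paired by replicate number, a pairing that these data do not settle, KO lay below WT in all 3 pairs at 2 of the 10 genes. These were Apoa1 and Apob, against 8.68% of all gene windows. For both, the exact permutation p with the replicate block was 0.25, the smallest that 3 pairs allow. At the Apob start, H3K4me2 peaks were 8380 and 7067 bp wide in KO lists 2 and 3 and 7496, 12353 and 8469 bp in WT. KO list 1 had no peak over that base, although C/EBPα peaks were there in all 4 lists. At the Apoa5 start they were 4927, 8751 and 6887 bp wide in KO and 7745, 11161 and 6495 bp in WT, and no list was without one.

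A list of 49 other genes of the pathway comprised other apolipoproteins, assembly and secretion factors, receptors, lipases, high-density lipoprotein factors and transcription factors, and the windows of these genes held 236 C/EBPα regions, of which some near Apoc2 and Apoc4 also lie in the members' windows. Lost regions numbered 13 (7.74% of 168) and gained ones 5 (3.05% of 164). Over all regions, as above, 19.3% were lost and 5.27% gained. Assembly and secretion factors had 4 gained of 43 (9.30%) and 1 lost of 35 (2.86%). The gained regions lay near Surf4, a cargo receptor for ApoB export, and over the upper end of Sec23a, a subunit of the COPII coat. The others lay in Dgat2, which makes triglyceride, and in Soat2, which makes cholesteryl ester. Sec23a had the 1 gained gene end of the 49 genes, where 13 genes had a kept one. The Dgat2 region (chr7:99161626-99162452) was 827 and 609 bp wide in KO, absent from WT, and carried an ARID1A peak. Soat2 also had the group's lost region.

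Apom, which encodes a carrier of sphingosine-1-phosphate on high-density lipoprotein, had the other gained region, with peaks of 393 and 334 bp in KO and none in WT. It was 1 gained of 16 (6.25%) for other apolipoproteins. Lipases and their inhibitors had 5 lost of 21 (23.8%) and 0 gained of 17, and of the lost ones 3 were near Lipc, the hepatic lipase, and 1 each near Lipg and Angptl4. Receptors and uptake genes had 4 lost of 29 (13.8%) and 0 gained of 25, with the lost ones near Lrp1, Scarb1, Sdc1 and Sort1. Abca1, the cholesterol exporter that starts high-density lipoprotein formation, had 2 lost regions, 1 of them (chr4:53080314-53080792) with an ARID1A peak, and Hnf4a, a transcription factor of hepatocyte genes, had 1. These were 2 lost of 14 (14.3%) for high-density lipoprotein factors and 1 lost of 53 (1.89%) for transcription factors. The Sdc1 region was the widest of the lost ones, with none in KO and 563 and 495 bp in WT. An ARID1A peak lay at a gene end of 9 of the 49 genes, against 2.23% of all genes (Apoc2, Apof, Lrp1, Sdc1, Angptl4, Abca1, Ppara, Foxa2 and Srebf1).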

How the data were processed

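ChIP-seq peaks were called by the authors, and their lists were deposited on mm10. The submitters' processing notes name MACS2 2.0.10.20131216, HOMER, Picard and Bowtie2 2.2.3 without roles. The authors' C/EBPα and V5 lists hold peak positions and no strength, and 40.0 to 40.1% of the highest peak number remains in each. The sources used here do not say how the others were removed. The deposited H3K4me2 lists add, per the file headers or columns, the authors' score, fold ratio and −log10 p and −log10 q for each peak, which depend on the depth of the library. Depth is unknown, and limits on a count of 0 (3 counts of the total) cover counting error only.

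The 10 genes, the pathway list and the markers were chosen with earlier results of these data known. Every member is named. Of the pathway genes, those with a lost or gained region in the window or an ARID1A peak within 1 kb of an end are named, and regions at gene ends, the kept one with the highest mean width percentile per window and all lost or gained ones, with some others, are described. Group differences were tested with two-sided exact permutation tests over libraries, with Benjamini-Hochberg adjustment over 21887 genes and a threshold of 0.05. Alternatives were a 10 kb window, stricter peaks, equal numbers of peaks per list, other overlaps and bins, a replicate block and leaving out each library. Correlations of same-numbered deviations were 0.712, 0.851 and 0.401 for H3K4me2 and 0.0824 for C/EBPα. For H3K4me2, KO list 1 with WT list 3 gave 0.703 and KO list 3 with WT list 1 gave 0.305. Only replicate 2 stood apart, so these values do not settle whether lists 1 and 3 pair by number. Promoters came from RefSeq (GRCm38.p6) for 8 of 10 genes. Python 3.11.15, numpy 2.4.6 and pandas 2.3.3 were used.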

Additional observations from a re-analysis of the deposited data

How the results depend on the processing

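Gained C/EBPα regions numbered between 5 and 8 and ARID1A peaks between 9 (10 kb window) and 15 across the alternatives run. The gained share over all regions moved as well. Without KO list 1, 8 of 37 member regions were gained, against 11.2% of all, and without KO list 2, 8 of 37 against 9.27%. Without WT list 2, 8 of 34 were gained against 16.6%, where the main setting gave 5.27% of all. Kept C/EBPα regions came to 16 in the 10 kb window, which leaves fewer peaks, and to 13 with peaks narrower than the median (395 bp) removed. In that setting some kept regions were called gained, since their WT peaks fell below the cut and both KO peaks did not. These were the Apob start, the region farthest upstream of Apob, the region in Apoc1, chr7:19683722-19684155 and chr9:46214744-46215382. Lost C/EBPα regions were between 0 and 1 when each library was left out. Without KO list 2 the region beyond Apoe was lost, where 25.8% of all such regions were lost. Without WT list 1 the one beyond Apob was lost, against 30.1% of all. Lost H3K4me2 bins numbered 1 in the 10 kb window, 1 with peaks at or above the median −log10 q, 1 with equal numbers of the strongest peaks, and 11 with 200-bp bins, which also gave 253 kept ones because each bin is smaller. Leaving out each H3K4me2 library gave between 2 and 10 lost bins, with 10 without KO list 2 and 4 without WT list 1, and between 0 and 1 gained, with 1 without KO list 1.

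Of the 10 kept regions at a gene end or with the highest mean width percentile of a window, both KO width percentiles exceeded both WT ones in 2 (the Apob start and Apoc1). With the replicate block, KO exceeded WT in every same-numbered pair in 4, and leaving out each library gave between 2 and 6. The replicate block gave 9 windows with more C/EBPα cover in KO in every pair, against 8 without it, and changed no call, since its smallest possible p is 0.5 for C/EBPα and 0.25 for H3K4me2. Leaving out each library gave between 8 and 10 such windows without the block.

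Leaving out 1 library turned the sign of some KO minus WT differences. None of these could pass the threshold of 0.05, since the smallest possible exact permutation p is 0.333 for C/EBPα and 0.1 for H3K4me2. C/EBPα cover at Apoe ran between -198 and 991 bp. H3K4me2 cover ran between -8.99 and 3.71 percentage points at Apoa5, between -8.48 and 0.88 at Apoa2 (0.773 without KO list 1), between -9.46 and 0.78 at Apob, between -1.35 and 1.70 at Mttp (1.03 without WT list 2) and between -1.10 and 3.11 at Lcat. C/EBPα width percentiles ran between -1.42 and 35.5 upstream of Apoa1, between -23.0 and 1.995 at Apoc3, between -3.94 and 12.4 upstream of Apoa2, between -1.70 and 9.999 inside Apob, between -12.7 and 17.6 beside Apoc1 and between -2.80 and 5.57 near Apoe. The cause of these turns was not tested. The lists give no read depth, so a missing peak cannot be told from one below the caller's threshold.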
